A study of Homo sapiens with 9 samples.

Results

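Stable lines of a human embryonic kidney cell line that overexpressed either G245S p53 or wild-type (WT) p53 were compared by RNA-seq. The comparison took 6 of the 9 libraries of the series, 3 of G245S p53 and 3 of WT p53, chosen by their genotype labels. The other 3 libraries came from R273H p53 lines and are given only beside the G245S values. The cell line label reads HEK 293, and the culture was described as HEK293T, a HEK293 derivative that carries the SV40 large T antigen. Both lines were made by lentiviral transduction of HEK293T cells, were kept under 1.5 µg/mL puromycin and received no other treatment before they were harvested with trypsin. Each p53 construct was a single line with no cloning step described, and the replicates were 3 biological samples of that line. An effect of the mutation and a difference that arose when the lines were made therefore cannot be told apart, and p-values measure the spread between samples of a line. The promoter of the transgene is not given in the sources used here, and untransduced cells were not analysed here.

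p53 is a transcription factor that binds DNA as a tetramer. It activates genes for cell cycle arrest, DNA repair, apoptosis, autophagy and metabolism, and it also activates MDM2, whose product ubiquitinates p53 and so closes a feedback loop. G245S is one of the recurrent cancer substitutions of the DNA-binding domain and is commonly grouped with the structural mutants, whereas R273H removes a residue that touches DNA. The large T antigen of HEK293T cells binds p53 and restrains its activity. Its level in these lines and its effect on each form of p53 were not tested here.

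Of the 78986 genes in the deposited count table, 15893 passed the low-count filter and were tested. The 5 libraries used in the main comparison, WT replicates 1 and 2 and all G245S replicates, held between 7682974 and 9666824 counts and detected between 26480 and 27479 genes. WT replicate 3 held 1485863 counts and detected 21805 genes. It was left out of the main comparison by a rule on depth alone, and the comparison was repeated with it. Values are counts scaled to 1000000 per library with TMM factors (CPM). A level of 3 counts equals 0.310 to 0.390 CPM in the 5 libraries and 2.02 CPM in WT replicate 3. Across genes, log2 CPM of the 5 libraries correlated with Pearson's r between 0.984 and 0.990, and WT replicate 3 correlated with the other WT libraries at 0.9497 and 0.957.

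WT replicate 3 also stood apart in composition. With at least 20 counts and at least 3 times the CPM of every one of the other 8 libraries of the series as the limit, 67 genes stood out in WT replicate 3, 4 in G245S replicate 3 and 0 in each of the other libraries. Of the 67 genes, 5 had no count in any other library. These 5 were SERPIND1 at 35.1 CPM, CTSG at 18.3, KLK3 at 17.6, CLCA1 at 16.2 and CEACAM6 at 14.8, genes known from liver, myeloid cells, prostate and mucosal epithelium, and they were named after their values were seen. FN1, which encodes fibronectin, stood at 112 CPM in WT replicate 3 and at 22.4 or less elsewhere. The 67 genes held 0.255% of the counts of that library. Of them 40 were tested in the main comparison, which does not use WT replicate 3. None of these was called, beside 0.126% of all genes tested, so this does not bear on the composition of WT replicate 3. The part of this difference in the results with all 3 WT libraries was not tested.

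Markers of the parental line were present in every library. Of 15 genes listed for HEK293 cells, including neurofilaments and early kidney regulators, 14 were at or above 1 CPM in all 6 libraries, and their summed level was between 1022 and 1127 CPM in WT replicates 1 and 2, 1206 in WT replicate 3 and between 958 and 1096 in G245S. STMN2 was the exception and was at or near 0. Of 11 markers of mature kidney tubules and podocytes, only LRP2 and PODXL reached 1 CPM in any library, and UMOD, AQP2, SLC12A1 and SLC34A1 had no count. Fibroblast and smooth muscle markers summed to between 44.9 and 75.2 CPM in WT replicates 1 and 2. They summed to 127 in WT replicate 3 and to between 34.5 and 71.1 in G245S. Of these 12 markers, 10 reached 1 CPM in some library and 4 in all 6. Blood and endothelial markers summed to between 2.64 and 2.96, 14.1 and between 1.94 and 3.20 CPM in the same order. Of these 10 markers, 3 reached 1 CPM in some library and 1 in all 6, and CD3E was at 0 in all 6. In WT replicate 3 a level of 1 CPM lies under that of 3 counts, 2.02 CPM. Both of these lists were highest in WT replicate 3, and the G245S ranges overlapped those of WT replicates 1 and 2.

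The question of the comparison was which transcripts differ when the overexpressed p53 carries G245S. At an adjusted p under 0.05, from the quasi-likelihood test of edgeR with Benjamini-Hochberg adjustment over all genes tested, 20 of the 15893 genes were called, 0.126% of those tested. Of these, 17 fell in G245S (0.107%) and 3 rose (0.0189%). Of the 17 genes that fell, 13 belonged to the 118 p53 target genes tested from the lists, and the other 4 were PYGL, ENHO, BRSK2 and TYMSOS. The genes that rose, SERPINF1, ASS1 and LINC00665, were in none of those lists. An unadjusted p under 0.05 was reached by 1058 genes (6.66%), split into 525 lower (3.3%) and 533 higher (3.35%). In bulk RNA, fewer expressing cells and less RNA per cell cannot be told apart. Refitted with all 3 WT libraries, 10 of 15606 genes were called (0.0641%), 9 lower (0.0577%) and 1 higher (0.00641%), and all 10 were among the 20, while 907 (5.81%) had an unadjusted p under 0.05. Leaving out WT replicate 1 gave 20 calls, of which 9 were among the 20, and leaving out WT replicate 2 gave 13, of which 11 were. These fits compare 1 WT library with 3 of G245S, so the lone library is assumed to vary as the G245S libraries do. Leaving out G245S replicate 3 gave 10 calls, of which 8 were among the 20. PHLDA3, DDB2 and ACTA2 were called under each of the 21 alternatives tried, and all 20 genes kept their direction in every alternative that tested them.

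**Figure D1:**
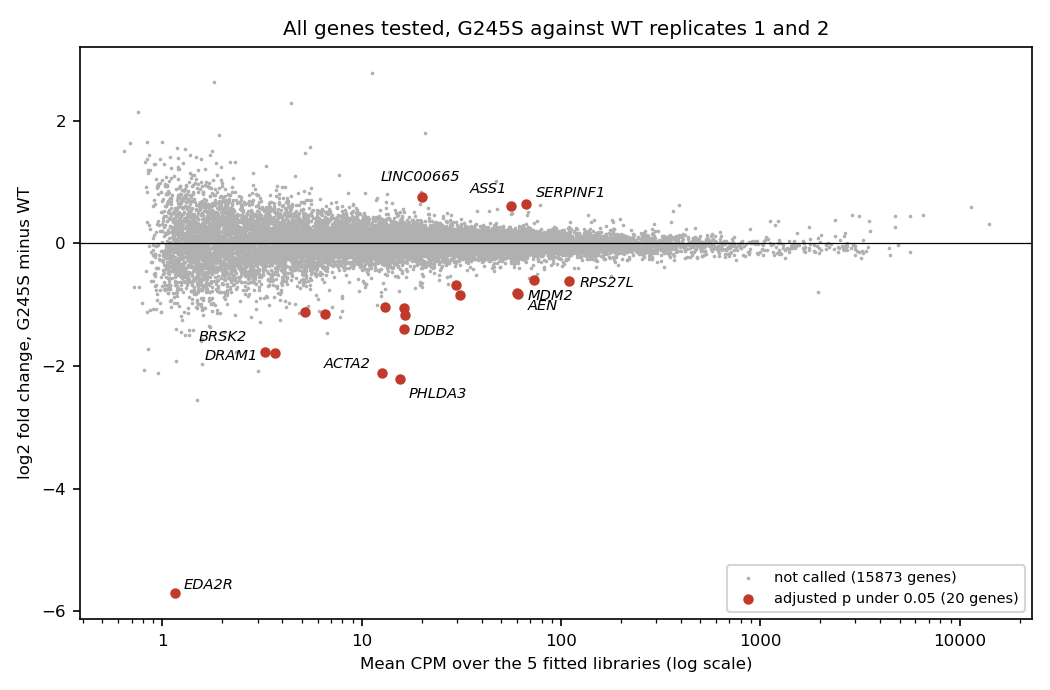
log2 fold change (G245S minus WT replicates 1 and 2) of each gene tested against its mean CPM over the 5 fitted libraries on a log axis, 1 point per gene. The 20 called genes are red, and all but 3 of them lie below the line at 0, while the grey points lie on both sides of it and spread more at low CPM. The value drawn for EDA2R depends on the small count that edgeR adds to zeros.

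Of 11 tested genes of p53 feedback and stability, 2 fell, MDM2 and TP53INP1, beside 0.107% of all genes tested. MDM2 (ENSG00000135679, GRCh38 chromosome 12, 68808177 to 68845544, plus strand) encodes the ubiquitin ligase that degrades p53. It stood at 79.3, 84.7 and 66.1 CPM in WT replicates 1 to 3 and at 47.1, 44.1 and 47.3 in G245S. Every WT value was above every G245S value, and G245S cells held 56.3% of the mean of WT replicates 1 and 2. Its log2 fold change was −0.82 (standard error 0.088, edgeR's adjusted p = 0.000848), or −0.77 when WT replicate 3 was included (adjusted p = 0.00743). TP53INP1, a stress-induced nuclear protein that promotes p53 phosphorylation and autophagy, was at 7.47, 7.97 and 9.84 CPM in WT and at 3.47, 3.61 and 3.45 in G245S. These groups were well separated, at −1.13 in log2 fold change with an adjusted p of 0.0399 from edgeR, which became 0.0610 with all 3 WT libraries. The remaining 9 tested members of this list were not called. Among them PPM1D, the phosphatase that switches off p53 signalling, was at 18.5, 21.8 and 15.5 CPM in WT and 14.5, 14.2 and 15.5 in G245S, and TRIM32, a ubiquitin ligase for p53, was at 26.4, 25.4 and 18.98 against 22.6, 21.65 and 19.6. In both, WT replicate 3 lay within the range of the G245S libraries or just below it.

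The promoter windows of the called genes were searched for the p53 consensus site because p53 binds DNA directly at many of its targets. RefSeq windows on GRCh38.p14 were matched by symbol for 15 of the 17 genes that fell and for 2 of the 3 that rose. PHLDA3, TP53INP1 and SERPINF1 were not matched. The search covered the 250 bases before each listed transcription start, and a match was 20 bases made of adjacent 10-base half-sites, with the invariant C and G of each half-site present and at most 3 mismatches to the consensus in all. The site is its own reverse complement in consensus form, so 1 strand was read. A match was found for 4 of the 15 genes that fell (26.7%), for 0 of the 2 that rose and for 137 of the 10841 tested genes with a window (1.26%). The 4 genes were MDM2, AEN, FDXR and RPS27L, and their matches are shown in capitals, 5′ to 3′ on the strand of the gene. Each match lies before a listed transcription start of its gene. For MDM2, FDXR and RPS27L that start is inside the annotated gene span, and for AEN the match precedes the span.
MDM2: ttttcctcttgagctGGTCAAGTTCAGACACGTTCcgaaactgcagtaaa
AEN: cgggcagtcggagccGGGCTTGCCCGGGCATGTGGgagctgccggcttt
FDXR: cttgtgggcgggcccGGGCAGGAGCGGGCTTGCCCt
RPS27L: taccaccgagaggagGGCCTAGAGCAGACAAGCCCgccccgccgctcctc
The MDM2 stretch lies at chr12:68808908-68808957 on the plus strand, before the internal start in the gene's first intron that is known as the P2 promoter, with 2 mismatches. The AEN stretch lies at chr15:88621291-88621339 on the plus strand with 2 mismatches, the FDXR stretch at chr17:74872995-74873030 on the minus strand with 3 and the RPS27L stretch at chr15:63157512-63157561 on the minus strand with 3. A match of this kind describes letters in a window and is not evidence of binding in these cells.

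Apoptosis genes showed the lowest median among the p53 target roles, at −0.39, beside 0.00 over all genes tested. Cell cycle arrest genes were next at −0.35, and with all 3 WT libraries these medians were −0.40 and −0.38. Of 18 members of the apoptosis list tested, 5 fell (beside 0.107% of all genes tested) and 0 rose. A negative log2 fold change was found in 16, beside 49.2% of all genes tested. PHLDA3 (ENSG00000174307, GRCh38 chromosome 1, 201464278 to 201469237, minus strand) encodes a pleckstrin-homology protein that competes with AKT for membrane lipids. It stood at 28.2, 31.0 and 30.9 CPM in WT and at 6.52, 5.54 and 6.89 in G245S, 21.4% of the mean of WT replicates 1 and 2. Its log2 fold change was −2.21 (standard error 0.136, edgeR's adjusted p = 3.14e-06). AEN, a p53-induced nuclease that cuts DNA in dying cells, stood at 80.2, 82.4 and 79.4 CPM in WT and at 44.4, 49.2 and 44.8 in G245S, a log2 fold change of −0.81 (standard error 0.088, adjusted p = 0.000848). BBC3, which encodes the BH3-only protein PUMA, was at 37.3, 39.2 and 30.2 CPM against 23.8, 22.4 and 25.1, a log2 fold change of −0.68 that was called against WT replicates 1 and 2 (adjusted p = 0.0152) but not with all 3 WT libraries (adjusted p = 0.0717). TP53I3, an oxidoreductase linked to reactive oxygen species, was at 17.9, 19.8 and 18.3 CPM against 8.76, 10.2 and 8.62. For each of these genes every WT library was above every G245S library.

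EDA2R, a receptor of the tumour necrosis factor family that binds ectodysplasin A2, was almost absent from G245S. It was counted 19, 27 and 3 times in WT replicates 1 to 3, or 2.18, 3.47 and 2.11 CPM. The G245S libraries held 0, 0 and 1 count. G245S cells thus held 1.40% of the level of WT replicates 1 and 2, with a 95% exact binomial interval of 0.0346% to 8.17% that covers counting error only, and edgeR's adjusted p was 0.00317. Reads from molecules with the same identifier were removed by the authors, so counts approximate molecules.

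Several apoptosis genes were lower in all G245S libraries than in all WT libraries without passing the threshold of the main comparison. BAX, whose protein opens the outer mitochondrial membrane, was at 97.3, 87.4 and 77.3 CPM in WT and 60.0, 71.4 and 64.0 in G245S (log2 fold change −0.50, edgeR's adjusted p = 0.0782). FAS, the death receptor, was at 5.17, 6.68 and 3.51 CPM against 1.73, 2.96 and 2.83 (−1.25, adjusted p = 0.147). PMAIP1, which encodes NOXA, was at 69.0, 65.9 and 77.3 CPM against 51.3, 53.9 and 49.6 (−0.38, adjusted p = 0.212). SPATA18, a mitochondrial quality control gene, was at 1.72, 1.80 and 2.81 CPM against 0.20, 0.52 and 0.49 (−2.12, adjusted p = 0.208). These 4 genes were called by edgeR's exact test and not by DESeq2, and they were named after their values were seen. On the same libraries the exact test called 73 of 15893 genes (0.459%), against 20 (0.126%) in the main comparison. Over the whole list 10 of 18 members were below all 3 WT libraries in every G245S library, where 5.85% of all genes tested were.

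DNA repair and nucleotide supply genes gave 2 calls among 11 members tested, both lower, beside 0.107% of all genes tested. Their median log2 fold change was −0.29, and 10 members were below 0, beside 49.2% of all genes tested. DDB2 (ENSG00000134574, GRCh38 chromosome 11, 47214465 to 47239217, plus strand) encodes the damage sensor of global genome nucleotide excision repair. It was at 26.7, 25.1 and 28.8 CPM in WT and at 9.58, 9.41 and 10.5 in G245S. G245S cells held 38.0% of the WT mean, with a log2 fold change of −1.39 (standard error 0.124, edgeR's adjusted p = 0.00018), or −1.42 when WT replicate 3 was included (adjusted p = 0.000237). RPS27L, a ribosomal protein paralog, was at 151, 126 and 179 CPM in WT against 84.0, 87.6 and 98.2 in G245S, a log2 fold change of −0.62 with an adjusted p of 0.0296 that became 0.0620 with all 3 WT libraries. XPC, the damage recognition partner of DDB2 in the same pathway, was at 26.4, 34.9 and 32.3 CPM against 19.8, 16.5 and 24.3 (−0.59, adjusted p = 0.332). PCNA, the replication clamp, was at 407, 355 and 357 CPM against 281, 307 and 285 (−0.38, adjusted p = 0.313). In XPC and PCNA every G245S library lay below all 3 WT libraries, as in 5.85% of all genes tested. Neither was called in the main comparison, while the exact test of edgeR called PCNA.

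Cell cycle arrest genes gave no call among 11 members tested (edgeR), although their median log2 fold change was −0.35. Beside 3.3% of all genes tested, 4 of these members were lower at an unadjusted p under 0.05. DESeq2 called 0 of them, and edgeR's exact test called 2, CDKN1A and PTP4A1. CDKN1A, which encodes the cyclin-dependent kinase inhibitor p21, was at 14.9, 18.5 and 19.7 CPM in WT and at 7.34, 10.2 and 11.4 in G245S. All 3 G245S values lay below all 3 WT values, and the log2 fold change was −0.79 (95% interval −1.17 to −0.42, edgeR's adjusted p = 0.206). PTP4A1, a phosphatase, was at 59.5, 55.8 and 53.4 CPM against 42.8, 45.5 and 43.2 (−0.39, adjusted p = 0.208). GADD45A, a stress sensor that interacts with PCNA, was at 19.4, 23.3 and 16.9 CPM against 15.8, 13.9 and 17.6, and here WT replicate 3 lay within the G245S range. BTG2, an antiproliferative adaptor of mRNA deadenylation, was at 15.97, 18.1 and 14.8 CPM against 15.2, 8.63 and 14.2, and 2 of the G245S libraries were near the WT values.

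Among genes that restrain AKT and mTOR or drive autophagy, 15 were tested and 2 fell, PHLDA3 and DRAM1, beside 0.107% of all genes tested. The median of this list was −0.09, the nearest to that of all genes among the p53 target roles. An unadjusted p under 0.05 was reached by 5 members in the lower direction and 1 in the higher, beside 3.3% and 3.35% of all genes tested. DRAM1, a lysosomal membrane protein of p53-dependent autophagy, was at 7.93, 4.88 and 6.33 CPM in WT and 1.43, 2.71 and 1.48 in G245S. G245S cells held 29.2% of the mean of WT replicates 1 and 2, and the log2 fold change of −1.80 was called against those replicates (edgeR's adjusted p = 0.0382) but not with all 3 (adjusted p = 0.0620). SESN1, which senses leucine and inhibits mTORC1, was at 25.4, 24.8 and 26.7 CPM against 17.5, 14.6 and 16.1 (−0.63, adjusted p = 0.0780 and 0.0786 with all 3 WT libraries). The groups of SESN1 were well apart, and it was called under 7 of the 21 alternatives, edgeR's exact test and voom with all 3 WT libraries among them.

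Redox and metabolism targets gave 2 calls among 19 members tested, TP53I3 and FDXR, both lower, beside 0.107% of all genes tested. Their median was −0.13, with 17 members below 0, beside 49.2% of all genes tested. FDXR, the mitochondrial ferredoxin reductase that supplies electrons for steroid and iron-sulphur cluster synthesis, was at 22.8, 26.9 and 16.9 CPM in WT and at 10.6, 13.1 and 9.36 in G245S. Its log2 fold change was −1.16 (standard error 0.147, edgeR's adjusted p = 0.00325), or −1.10 when WT replicate 3 was included (adjusted p = 0.0222). LPIN1, a phosphatidate phosphatase, was at 12.99, 13.1 and 14.1 CPM in WT and at the higher values of 18.9, 15.2 and 21.3 in G245S, without a call (0.51, adjusted p = 0.526). GPX1, a selenium-dependent glutathione peroxidase, was at 249, 234 and 235 CPM against 176, 223 and 195 (−0.28, adjusted p = 0.667).

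The remaining direct targets gave 2 calls among 35 members tested, ACTA2 and CYFIP2, both lower, beside 0.107% of all genes tested. Their median was −0.16. ACTA2 (ENSG00000107796, GRCh38 chromosome 10, 88934822 to 88991339, minus strand) encodes smooth muscle actin. It was at 22.1, 24.7 and 22.5 CPM in WT and at 3.77, 7.73 and 4.92 in G245S, 23.4% of the mean of WT replicates 1 and 2. The G245S libraries differed among themselves by more than the WT libraries did, yet all were far below them, and the log2 fold change was −2.11 (standard error 0.2, edgeR's adjusted p = 0.000268). FAS overlaps ACTA2 on the other strand, and counting was strand-specific. The other contractile genes gave a mixed picture. Of 23 tested actin and contractile genes 1 fell, ACTA2, beside 0.107% of all genes tested, and the list median was −0.16. An unadjusted p under 0.05 was reached by 7 in the lower direction and 1 in the higher, beside 3.3% and 3.35% of all genes tested. TAGLN, an actin cross-linker of smooth muscle, was at 12.2, 16.8 and 66.1 CPM in WT against 8.26, 11.1 and 12.4 in G245S, and CNN2, a calponin, was at 25.7, 26.5 and 33.7 against 17.1, 20.6 and 19.5. TAGLN was among the 67 genes that stood out in WT replicate 3.

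CYFIP2, a subunit of the WAVE complex that links RAC to actin assembly, was at 42.9, 42.4 and 42.2 CPM in WT and at 25.2, 21.8 and 23.5 in G245S. The 3 WT libraries were within 1 CPM of each other, and the log2 fold change was −0.85 (standard error 0.102, edgeR's adjusted p = 0.00229). The other 8 WAVE complex members tested were not called. WASF1 and WASF3, scaffolds of the complex, were at 43.0, 40.3 and 35.1 against 46.7, 47.5 and 44.0 CPM and at 10.6, 9.64 and 7.03 against 10.7, 10.95 and 11.4 CPM. ZNF79, a zinc finger gene, was at 16.9, 24.5 and 23.9 CPM against 13.1, 11.98 and 16.7 (−0.56, adjusted p = 0.550). MIR34AHG, the host transcript of miR-34a, and NHLH2, a transcription factor gene, were both named after their values were seen. Both were called by edgeR's exact test only among the other tools. They were at 3.56, 4.75 and 4.22 against 2.14, 0.77 and 0.49 CPM (−1.77, adjusted p = 0.228) and at 2.87, 2.44 and 5.62 against 1.12, 0.52 and 0.98 CPM (−1.56, adjusted p = 0.248).

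**Figure D2:**
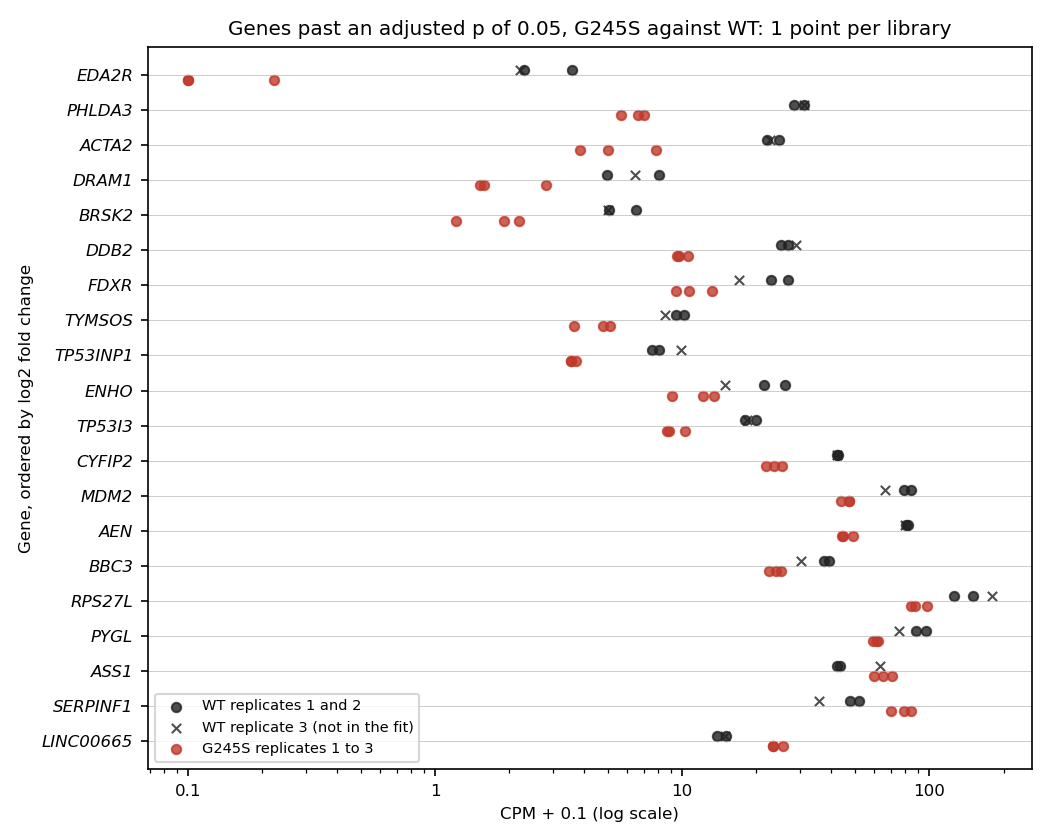
CPM plus 0.1 on a log axis for the 20 called genes, 1 point per library, with WT replicates 1 and 2 as black points, WT replicate 3 as a cross and the G245S replicates in red. For all 17 genes that fell, the cross lies right of every red point, and for ASS1 the cross at 63.3 CPM lies among the G245S points.

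Over all p53 target lists, 118 of 138 listed genes were tested. Of these 96 had a negative log2 fold change (81.4%, beside 49.2% of all genes tested), 13 fell (11%, beside 0.107%) and 0 rose. An unadjusted p under 0.05 was reached by 42 members in the lower direction (35.6%, beside 3.3%) and by 2 in the higher. In 37 members (31.4%, beside 5.85%) every G245S library lay below all 3 WT libraries, and in 1 member above them (beside 6.47%). The median was −0.18 in the main comparison and −0.20 with all 3 WT libraries, and over the 105 members that were not called it was −0.16. The lists came from general knowledge and were chosen with earlier results of these data known, so the counts describe these libraries and are not independent evidence of the direction.

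**Figure D3:**
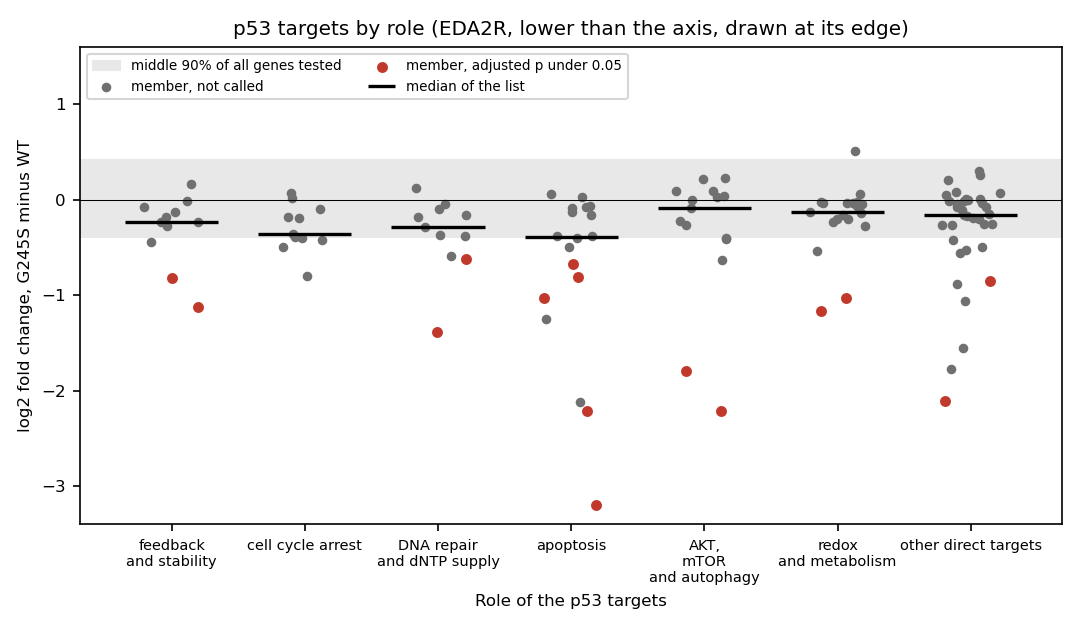
log2 fold change (G245S minus WT replicates 1 and 2) of each tested p53 target, grouped by role, with called genes in red, the list medians as bars and the middle 90% of all genes tested as a grey band. The medians lie between −0.39 for apoptosis and −0.09 for the AKT, mTOR and autophagy list, and called members stand below the band in every role but cell cycle arrest.

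Outside the p53 lists 4 genes fell. PYGL, the liver form of glycogen phosphorylase, was at 97.0, 88.4 and 75.2 CPM in WT and 59.3, 61.1 and 61.8 in G245S, with a log2 fold change of −0.60 (standard error 0.087, edgeR's adjusted p = 0.0114). Its adjusted p was 0.0786 with all 3 WT libraries, of which replicate 3 was nearest to G245S. Of the other 16 glycogen metabolism genes tested none was called, and the list median was −0.05. ENHO, which encodes the peptide adropin, was at 26.0, 21.3 and 14.8 CPM against 8.97, 13.4 and 12.1 (−1.05, adjusted p = 0.0152, and 0.0798 with all 3). BRSK2, a kinase of the AMPK family that is known from neurons, was at 4.94, 6.42 and 4.92 CPM against 1.12, 1.80 and 2.09 (−1.77, adjusted p = 0.0273, and 0.0524 with all 3). In each of these genes all WT libraries were above all G245S libraries.

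TYMSOS, a noncoding transcript on the strand opposite to TYMS, was at 10.1, 9.38 and 8.43 CPM in WT and 3.57, 5.03 and 4.68 in G245S, a log2 fold change of −1.15 (standard error 0.192, adjusted p = 0.0296). The adjusted p was 0.0660 once WT replicate 3 was added. TYMS, the overlapping gene for thymidylate synthase, was at 142, 132 and 127 CPM against 97.7, 108 and 103. TYMS values were also below WT in every G245S library, without a call in the main comparison (−0.41, adjusted p = 0.174), while edgeR's exact test called it.

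The 3 genes that rose did so by moderate amounts. SERPINF1, which encodes the secreted factor PEDF, was at 52.1, 47.5 and 35.8 CPM in WT and 70.0, 79.1 and 84.1 in G245S, a log2 fold change of 0.65 (standard error 0.101, adjusted p = 0.0215). The adjusted p was 0.0524 once WT replicate 3 was added. LINC00665, a long noncoding RNA, was at 14.9, 13.7 and 14.8 CPM against 25.6, 23.2 and 23.1 and was called with and without WT replicate 3 (0.75, adjusted p = 0.0273 and 0.0466). ASS1, argininosuccinate synthase of the urea cycle, was at 43.3, 42.4 and 63.3 CPM against 59.7, 70.9 and 65.0. Its log2 fold change was 0.61 (adjusted p = 0.0259), and with all 3 WT libraries it was 0.49 with an adjusted p of 0.503. The call was lost in all 6 alternatives that included WT replicate 3, and also without WT replicate 1, WT replicate 2 or G245S replicate 3 (adjusted p between 0.106 and 0.294). Of the other 11 arginine and urea cycle genes tested none was called in the main comparison, although the exact test of edgeR called GAMT. GAMT, which makes creatine, was at 83.9, 83.0 and 81.5 CPM in WT and 57.2, 69.2 and 61.9 in G245S (−0.41, adjusted p = 0.228).

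Adding WT replicate 3 left 9 of the 17 lower calls and 1 of the 3 higher calls. The 8 lower genes that were lost had adjusted p values between 0.0524 and 0.0798 with all 3 WT libraries, and each kept every G245S library below every WT library. A voom fit of limma that weighted libraries by quality, with all 3 WT libraries, gave a weight of 0.55 to WT replicate 3 and between 0.76 and 1.69 to the others. It called 25 genes, 19 of them among the 20. Pairs of WT libraries that included replicate 3 gave 3 calls with replicate 1 and 16 with replicate 2, of which 3 and 8 were among the 20.

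**Figure D4:**
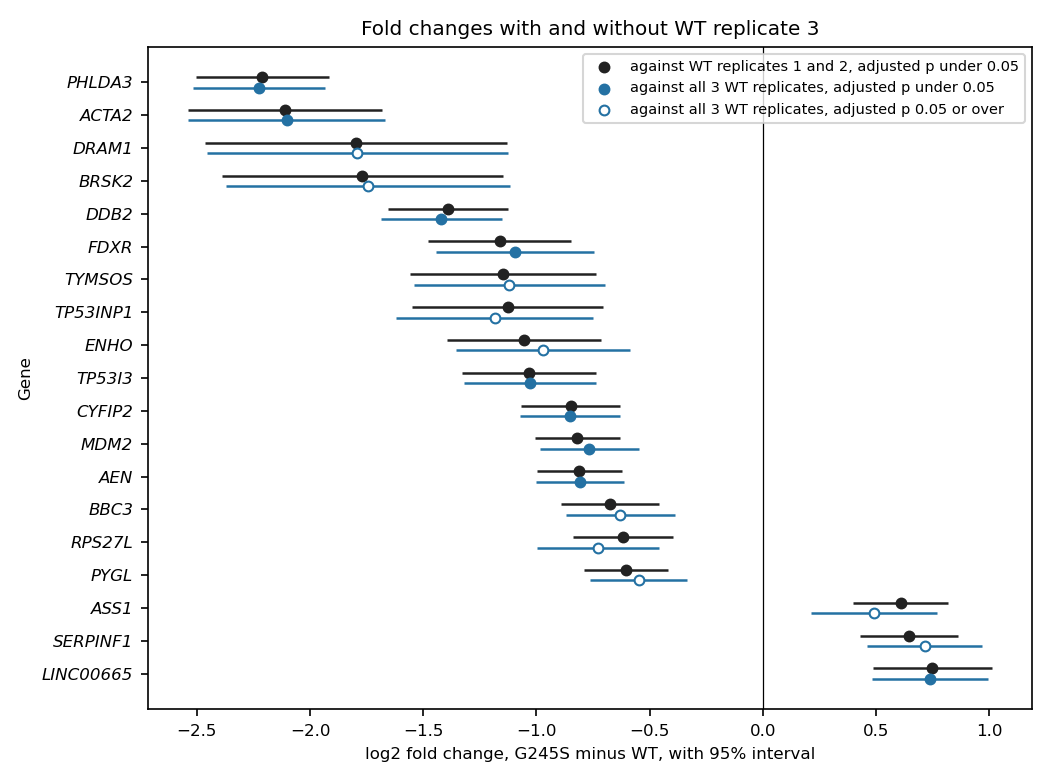
log2 fold change (G245S minus WT) with its 95% interval for 19 of the 20 called genes, against WT replicates 1 and 2 in black and against all 3 WT replicates in blue, open where the adjusted p was 0.05 or over. EDA2R is left out because G245S held 1 count in all, and the largest shift is in ASS1, from 0.61 to 0.49.

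Cell cycle and histone transcripts were not called in the main comparison. The exact test of edgeR called 2 S phase genes, TYMS and PCNA, and 2 histones, H4C3 and H1-4, of which voom also called H4C3, and DESeq2 called none. Of 52 S phase genes driven by E2F, 42 had a negative log2 fold change, beside 49.2% of all genes tested. The median was −0.10, which became −0.04 with all 3 WT libraries. WT replicate 3 had the lowest mean level of this list among the 6 libraries. For RFC2, a clamp loader subunit, the levels were 95.5, 94.1 and 94.2 CPM in WT and 67.5, 86.1 and 78.4 in G245S (adjusted p = 0.638). The 55 genes of G2 and M phase had a median of −0.01, and NCAPG, a condensin subunit, was at 56.4, 63.0 and 65.4 CPM against 49.4, 44.2 and 49.1 (−0.32, adjusted p = 0.527). Only 23 of 61 replication-dependent histone genes passed the filter, with a median of −0.26. H4C3 was the most abundant named member, at 2655, 2579 and 4149 CPM in WT and 1203, 2060 and 1267 in G245S (−0.79, adjusted p = 0.212). H1-4, a linker histone, was at 7.70, 14.01 and 15.5 CPM against 3.06, 1.68 and 6.89 (−1.47, adjusted p = 0.310). These histone mRNAs end in a stem-loop rather than a poly(A) tail, so their counts depend on how cDNA was primed.

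Mitochondrially encoded mRNAs varied widely within both lines. Of 13 tested, 12 had a positive log2 fold change, beside 8073 of the 15893 genes tested, and the list median was 0.44. Beside 3.35% of all genes tested, 8 members were higher at an unadjusted p under 0.05. Neither edgeR nor DESeq2 called any member, while the exact test called MT-CO3. MT-CO3, a core subunit of cytochrome c oxidase, was at 8177, 9338 and 13499 CPM in WT and 16115, 12819 and 10535 in G245S. MT-ATP6, a subunit of ATP synthase, was at 4957, 5714 and 8253 CPM against 8350, 7334 and 6210. In both genes WT replicate 3 lay within the G245S range, and with all 3 WT libraries the list median was 0.19. MT-ATP8, whose reading frame overlaps that of MT-ATP6, was the member below 0, at 185, 256 and 264 CPM against 211, 171 and 70.7. Mitochondrial genes took 4.47%, 5.71% and 7.02% of the counts of WT replicates 1 to 3 and 8.34%, 6.42% and 5.55% of the G245S replicates.

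Nuclear genes for mitochondrial proteins lay close to 0. Median log2 fold changes were −0.02 over 37 complex I subunits, 0.02 over 30 subunits of complexes II, III and V, 0.01 over 12 nuclear complex IV subunits, −0.01 over 77 mitochondrial ribosomal proteins, 0.00 over 35 import and outer membrane proteins, 0.01 over 36 genes of mitochondrial genome maintenance and expression and −0.03 over 22 genes of fission, fusion and mitophagy. No member of these lists was called by edgeR, its exact test, DESeq2 or voom. An unadjusted p under 0.05 was reached by 4 of them in all, each lower, beside 3.3% of all genes tested in that direction. COX7C, a small complex IV subunit that the study followed as a p53 partner, was at 785, 661 and 664 CPM in WT and 639, 753 and 697 in G245S, with a log2 fold change of −0.05 (95% interval −0.29 to 0.19). TFAM, the packaging and transcription factor of mitochondrial DNA, was at 117, 119 and 110 CPM against 102, 101 and 94.1 (−0.25, adjusted p = 0.606).

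Transcripts of the other partner proteins that the study names were not called either by edgeR, its exact test, DESeq2 or voom. Of 29 such genes 28 were tested, with a median of 0.00 and 0 members at an unadjusted p under 0.05, beside 6.66% of all genes tested. ZC3H7B, a zinc finger RNA-binding protein linked to miRNA biogenesis, was at 36.9, 33.5 and 31.6 CPM in WT and 36.3, 34.5 and 39.1 in G245S (0.06, 95% interval −0.15 to 0.28). TUT4, a terminal uridylyltransferase, was at 40.5, 47.2 and 42.2 CPM against 49.5, 37.4 and 40.4 (−0.03, −0.29 to 0.23). TOMM70, an import receptor of the outer mitochondrial membrane, was at 95.5, 99.8 and 86.5 CPM against 94.8, 102 and 89.7 (−0.02, −0.22 to 0.17), and AKAP1, which tethers RNA and kinases there, was at 86.0, 69.0 and 75.9 against 75.8, 71.9 and 68.6 (−0.10, −0.32 to 0.13). These intervals bound a change of transcript level and say nothing about protein contacts. The 29 genes of miRNA biogenesis and silencing had a median of 0.02, and AGO2 was at 72.7, 60.1 and 68.9 CPM against 77.3, 68.0 and 75.6.

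Lists of stress and growth genes also gave no call by any of these tools. The median over 80 cytosolic ribosomal protein genes was −0.05, and it was −0.13 with all 3 WT libraries. Of these genes 65 were below 0 in the main comparison, beside 49.2% of all genes tested. Medians were 0.02 over 27 cytosolic chaperones, 0.05 over 34 genes of the integrated stress response, −0.02 over 20 NRF2 genes, 0.07 over 24 cholesterol synthesis genes and −0.08 over 17 interferon response genes. HSPA1B, an inducible HSP70, was at 1062, 1030 and 871 CPM in WT and 1284, 1187 and 1391 in G245S (0.31, adjusted p = 0.650). HSPA1A is a near-identical copy that reached at most 15.5 CPM in these libraries, and sharing of reads between both was not tested. PCK2, the mitochondrial form of phosphoenolpyruvate carboxykinase, was at 14.02, 10.02 and 11.9 CPM against 16.8, 14.9 and 19.1 (0.50, adjusted p = 0.587). The hypoxia and glycolysis list had a median of 0.07 over 38 genes, and the mean log2 level of its members was above the other libraries in G245S replicate 3, by 0.26 over WT replicates 1 and 2, against −0.06 and −0.08 in the other G245S libraries. BNIP3, a mitophagy receptor induced by hypoxia, was accordingly at 71.9 and 68.5 CPM in G245S replicates 1 and 2 and at 143 in replicate 3, with 89.4, 76.8 and 84.3 in WT.

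**Figure D5:**
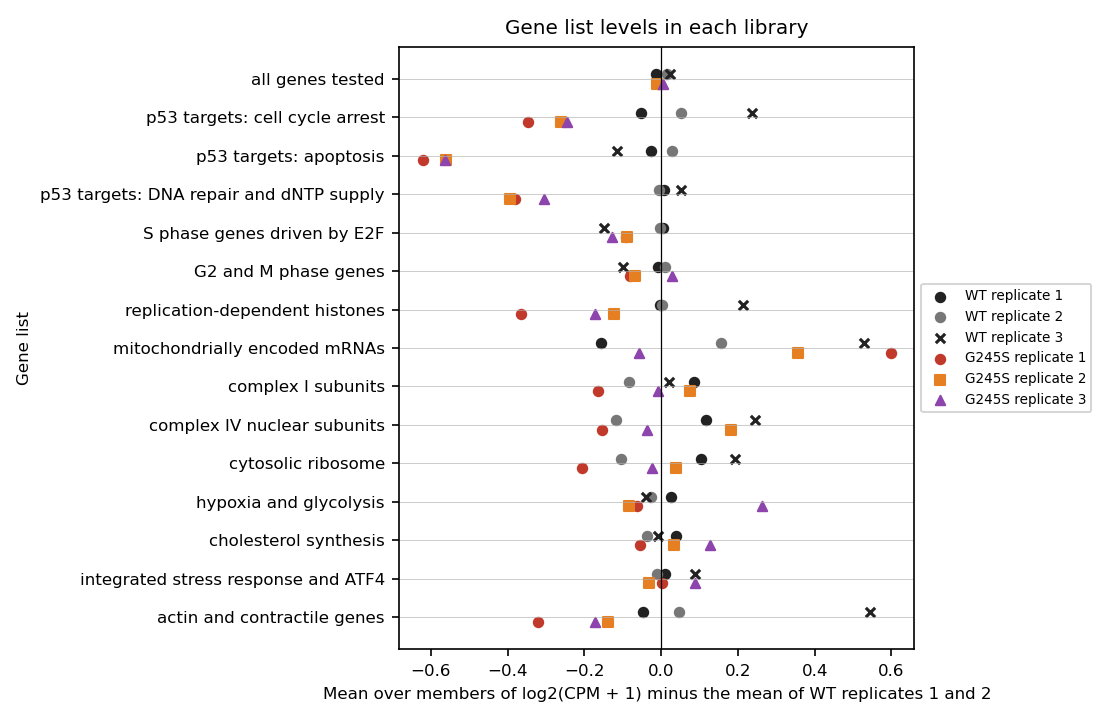
Mean over the members of each list of log2(CPM + 1) minus the mean of WT replicates 1 and 2, 1 point per library. The 3 p53 target lists shown are lower in all 3 G245S libraries, mitochondrially encoded mRNAs run from −0.06 to 0.60 within G245S, and WT replicate 3 lies at 0.54 for actin and contractile genes, away from the other WT libraries.

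What the comparison could resolve depended on abundance. The median half-width of the 95% interval was 0.72 on the log2 scale for 4172 genes between 1 and 5 CPM, 0.35 for 4340 genes between 5 and 20, 0.22 for 5386 genes between 20 and 100 and 0.21 for 1899 genes above that. For 13646 of the 15893 genes (85.9%) the interval lay within a log2 fold change of 1 in either direction. Of the 20 calls, 3 were at 1 to 5 CPM, 8 at 5 to 20, 8 at 20 to 100 and 1 above. Smaller changes of weakly expressed genes were not detectable at this depth.

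For most called genes R273H and G245S were at similar levels. ACTA2 was furthest apart among those tested between the mutants, and EDA2R was not tested. Both mutants were compared with the same WT libraries, so their values are set side by side. R273H against WT replicates 1 and 2 gave 22 calls among 16022 genes (0.137%) and, against all 3 WT libraries, 16 among 15698 (0.102%). PHLDA3 was at 6.99 ± 1.01 CPM (SD, n = 3) in R273H and 6.32 ± 0.699 in G245S, MDM2 at 43.8 ± 2.18 and 46.1 ± 1.80, DDB2 at 8.45 ± 0.980 and 9.82 ± 0.567, and LINC00665 at 24.2 ± 1.68 and 24.0 ± 1.39. Tested directly, R273H against G245S gave 0 calls among 15614 genes (edgeR, the only tool run here), and 741 genes (4.75%) had an unadjusted p under 0.05. Of the 20 genes 19 were tested there, with log2 fold changes between −0.25 and 0.55. For 18 of them the 95% interval held 0, and the exception was ACTA2, at 7.99 ± 2.103 CPM in R273H and 5.48 ± 2.04 in G245S (0.55, adjusted p = 0.994). The intervals reached from −0.81 to 1.07 over the 19 genes, so differences of that size between the mutants remained possible. EDA2R was not tested there and was at 0.69, 0.68 and 0.47 CPM in R273H, above its 0, 0 and 0.12 CPM in G245S. Against WT replicates 1 and 2, EDA2R and TP53INP1 were not called in R273H (edgeR's adjusted p = 0.0567 and 0.162).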

How the data were processed

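RNA from stable HEK293T lines was reverse transcribed and sequenced as tagmented cDNA libraries with molecular identifiers. Per the methods and processing notes, the authors demultiplexed and trimmed reads (fastp 0.24.0), aligned them to GRCh38 with STAR 2.7.11, removed duplicate molecules and assigned reads to exons and 3' UTRs by strand with featureCounts of Subread 2.1.1. The deposited values are expected counts: reads with several alignments were shared as fractions, so 5653 to 8599 genes per library were not whole, and counts were rounded here. Near-identical copies can therefore share counts. The table's 9 CPM columns were not used.

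The 6 libraries were grouped by their genotype labels. WT replicate 3 was left out of the main comparison because its total was under 0.5 times the median total of the other 8 libraries, a limit of 4095796.25 counts. The test was edgeR 4.0.16 quasi-likelihood on R 4.3.3 with filterByExpr, TMM factors and no covariate, two-sided, with Benjamini-Hochberg adjustment and a threshold of 0.05. Alternatives, 21 in all, used limma 3.58.1, DESeq2 1.42.0, other scalings, filters and libraries. Scripts were tested on simulated data. Totals of 7682974 to 9666824 counts were behind the values. The 95% intervals of log2 fold changes rest on the spread between libraries, whereas the binomial interval and the floors cover counting error only.

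Named genes were all called genes, up to 4 members per list with the largest absolute log2 fold change at a mean of at least 5 CPM, the partner genes of the study with CDKN1A, and the 10 highest and 10 lowest uncalled genes with an unadjusted p under 0.05 whose groups did not overlap. The 10 highest and 10 lowest also had a mean of at least 5 CPM. The comparison, lists and rule were chosen with earlier results of these data known. Some items are not reported here.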

Additional observations from a re-analysis of the deposited data

Results flagged for a closer look

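WT replicate 3, which the main comparison does not use, held some genes far above their levels in the other 8 libraries of the series. In it 67 genes had at least 20 counts and at least 3 times the level of every other library. The 6 shown are the protein-coding genes with the highest levels, picked after their values were seen. The processed pseudogene RPS3AP47, at 609 CPM, and the long noncoding RNA TALAM1, at 131 CPM, stood above them. LRRC75A stood at 129 CPM against at most 34.0 elsewhere, FN1 at 112 against 22.4, and the apolipoprotein gene APOE at 88.6 against 7.11. The smooth muscle gene TAGLN was at 66.1 CPM against at most 16.8, the keratin gene KRT8 at 54.8 against 12.1, and the kallikrein gene KLK2 at 45.0 against 0.345. Their part in the results with all 3 WT libraries was not tested.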

How the results depend on the processing

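Of 21 alternatives run, all kept the direction of the 20 called genes wherever these were tested. The 20 calls (17 lower, 3 higher) became 10 (9 and 1) with all 3 WT libraries, 3 (3 and 0) with WT replicates 1 and 3, and 16 (16 and 0) with WT replicates 2 and 3. Without a low-count filter there were 144 (87 and 57), and with the exact test of edgeR 73 (53 and 20). Among protein-coding genes alone 28 were called (22 and 6). Leaving out each replicate gave 10 to 30 calls, 8 to 22 lower and 1 to 8 higher, with 10 without G245S replicate 3 and 30 without G245S replicate 2. The fits without WT replicate 1 or 2 have 1 WT library, which is assumed to vary like the G245S libraries. The median of the p53 targets was −0.2164 with WT replicates 1 and 3 and ran from −0.2203 to −0.1742 when replicates were left out. The causes of these shifts were not tested, apart from the number of libraries and genes that each alternative sets. Over 194 named genes, 4064 values under alternatives were computed, of which 134 in 42 uncalled genes had the other sign.

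Deviations of same-numbered WT and G245S libraries from their group means correlated at 0.096, −0.067 and 0.093. Of the WT libraries, replicates 1 and 3 correlated best with their own number and replicate 2 did not. These values do not settle whether replicate numbers pair the samples, because the WT mean includes the outlying WT replicate 3. With the replicate block 76 genes were called (53 and 23), and with the block and all 3 WT libraries 74 (68 and 6). Depth limits genes under 5 CPM most.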

Other observations

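Counts were made among genes with a mean of at least 5 CPM that were also tested with all 3 WT libraries. Of these, uncalled genes with an unadjusted p under 0.05 (edgeR) whose G245S and WT libraries did not overlap numbered 222 lower and 200 higher. Without limits on level or p, every G245S library lay below all 3 WT libraries in 5.85% of genes tested and above them in 6.47%. The genes given here were drawn from the 10 highest and 10 lowest of the uncalled genes. They were picked by their values, and a shared role was not tested. GADD45B, a stress-response relative of GADD45A, was at 8.04, 8.99 and 7.73 CPM in WT replicates 1 to 3 and at 14.1, 14.2 and 14.3 in G245S (log2 fold change 0.74, edgeR's adjusted p = 0.0780). CRABP2, which carries retinoic acid to the nucleus, was at 59.6, 49.7 and 38.0 CPM against 76.1, 67.4 and 90.2 (0.52, adjusted p = 0.237). On the lower side SDC1, the proteoglycan syndecan-1, was at 11.4, 10.5 and 13.4 CPM against 6.73, 4.64 and 6.52 (−0.86, adjusted p = 0.147), and ASTN2, an astrotactin known from neuronal migration, was at 9.31, 7.45 and 8.43 against 3.77, 5.41 and 4.31 (−0.91, adjusted p = 0.208). The exact test of edgeR, run on the same libraries, called these 4 genes. MTCO3P12, a nuclear copy of mitochondrial sequence, was at 279, 313 and 156 CPM against 573, 437 and 344, and is uncertain because it shares sequence with MT-CO3.

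Processed pseudogenes had a median log2 fold change of −0.16 over 599 genes tested, with 451 below 0, beside 49.2% of all genes tested. Among the pseudogenes edgeR called 0, while its exact test called 6. Beside 3.3% and 3.35% of all genes tested, 62 pseudogenes were lower and 7 higher at an unadjusted p under 0.05. Their mean log2 level relative to WT replicates 1 and 2 was −0.31, −0.05 and −0.08 in G245S replicates 1 to 3, against −0.09, 0.09 and 0.31 in the WT replicates, so G245S replicate 1 stood lowest and the other G245S libraries lay above WT replicate 1. With all 3 WT libraries their median log2 fold change was −0.25. The long noncoding RNAs had a median of 0.05 over 2233 genes. Of 49 genes tested next to the called genes, 9 of them overlapping, the main comparison called none and edgeR's exact test called 2, FAS and TYMS, and their median was −0.04. One of them, the long noncoding RNA ENSG00000224818 that overlaps PHLDA3 on the same strand, was at 1.61, 1.41 and 1.41 CPM in WT and 0.41, 0.26 and 0.37 in G245S (−2.06, adjusted p = 0.228), and reads of both may be shared. Medians by chromosome ran from −0.02 on chromosome 4 to 0.04 on chromosome 16.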
